A study of Mus musculus with 48 samples.

Results

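The immediate early genes described here are 10 genes, *Fos*, *Fosb*, *Jun*, *Junb*, *Egr1*, *Ier2*, *Arc*, *Npas4*, *Btg2* and *Nr4a1*, taken as a fixed list by name, and all 10 were present among the 16510 genes of the deposited count table. They were followed in the hypothalamus of mouse embryos at E18.5 by single-cell RNA sequencing of 14121 cells in 48 libraries. Control embryos (Eed fl/fl, 6 embryos in 22 libraries) carried both floxed alleles without Cre. *Eed-cKO* embryos (Eed fl/fl; Sox1-Cre/+, 9 embryos in 26 libraries) carried the same alleles and 1 copy of Cre driven from *Sox1*, a gene of early neural tissue, so that *Eed*, a subunit of the Polycomb repressive complex that methylates lysine 27 of histone H3, is deleted in the neural lineage. Endothelial cells and microglia arise outside that lineage. Both groups held both sexes. The hypothalamus was cut into 2 to 4 pieces and incubated with papain at 37 °C for 60 min, and which piece or loading gave which library of an embryo was not given in the sources used here. The control embryos came from 4 litters and the *Eed-cKO* embryos from 6, as read from the library names. Of these, 0 litters held both genotypes, so litter and genotype cannot be told apart in any comparison below. The day of dissociation was not given, so it could not be set apart from genotype either.

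Immediate early genes are switched on within minutes of a stimulus, without new protein synthesis, and their transcripts are short-lived. In neurons they follow synaptic activity and calcium entry, and in many cell types growth factors, injury and the warm enzymatic dissociation of tissue also induce them, which is why they are often read as a handling signature in single-cell data. Their promoters carry sites for the serum response factor and for CREB, the factor activated by cyclic AMP and calcium.

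Each library held between 576432 and 4513505 UMIs (unique molecular identifiers, 1 per captured transcript), and 1 control library stood apart with 1207 cells against 163 to 465 in the other 47. Of 14019 distinct cell barcodes, 101 occurred in more than 1 library, 8 of them within 1 embryo. *Eed* itself was at a CPM (UMIs of a gene scaled to a common total per sample) of 31.3 ± 1.95 in control embryos (SD, n = 6) and 23.6 ± 2.65 in *Eed-cKO* embryos (n = 9), a log2 fold change of -0.45 (SE 0.085, edgeR quasi-likelihood test, adjusted p = 0.000464), and the ranges of the groups did not overlap. The cells called All-Hypo here, 13301 in all, are those left without 820 cells of endothelial-like, pericyte or smooth muscle-like, leptomeningeal-like and microglia or macrophage-like clusters. The authors use the same name for a set that they filtered in another way. Cells were clustered without the 10 genes and without the related lists given further on, and clusters were named from markers: 10183 cells were neuron-like, and 1485 cells of low depth and 61 cells of a cluster without control cells stayed unnamed. The unnamed cells were kept in All-Hypo, and *Ttr*, *Cga* and *Pomc* led the cluster of 61.

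Upstream sequence of 3 members is shown because members that rise together invite a look at shared letters, here the core of the CREB site. The windows are the 250 bases before the RefSeq start of each gene (GRCm38.p6, the build of mm10, on which the counts were made), written 5′ to 3′ on the gene's strand, in lower case with TGACG and its reverse complement CGTCA in capitals. The *Fos* window is chr12:85473640-85473889, plus strand, just before the first exon of a gene annotated at chr12:85473890-85477273. The *Btg2* window is chr1:134079156-134079405, minus strand, outside the annotated exons of a gene at chr1:134075170-134079120. The *Nr4a1* window is chr15:101266596-101266845, plus strand, and lies in an intron of the gene as GENCODE draws it (chr15:101254269-101274795), upstream of an internal start.
Fos: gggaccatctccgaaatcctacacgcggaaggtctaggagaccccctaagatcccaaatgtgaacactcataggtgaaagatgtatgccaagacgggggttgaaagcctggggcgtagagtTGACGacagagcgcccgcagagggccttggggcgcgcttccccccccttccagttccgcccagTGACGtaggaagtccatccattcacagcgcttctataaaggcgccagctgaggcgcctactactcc
Btg2: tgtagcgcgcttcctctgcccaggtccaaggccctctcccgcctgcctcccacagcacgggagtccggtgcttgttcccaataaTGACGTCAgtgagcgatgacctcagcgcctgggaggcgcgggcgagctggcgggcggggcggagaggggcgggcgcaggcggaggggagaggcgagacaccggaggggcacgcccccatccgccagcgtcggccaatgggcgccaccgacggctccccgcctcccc
Nr4a1: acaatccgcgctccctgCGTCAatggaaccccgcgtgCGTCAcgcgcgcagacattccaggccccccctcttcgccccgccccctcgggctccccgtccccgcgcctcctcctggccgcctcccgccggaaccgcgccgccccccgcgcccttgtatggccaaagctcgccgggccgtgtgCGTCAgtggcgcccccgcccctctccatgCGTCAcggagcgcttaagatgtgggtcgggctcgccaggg
TGACG on either strand stood in the windows of 6 of the 7 members that have an entry in the RefSeq table (*Jun* had none), and in 17.8% of the 32851 windows of the same length over all genes. *Fos* held it 129 and 66 bases before the start and *Nr4a1* held CGTCA 233, 213, 69 and 40 bases before it. In *Btg2* both words overlap in the full palindrome TGACGTCA, which began 166 bases before the start and stood in 1.55% of all windows. Of the 6 members with the word, *Npas4* had all 250 bases of its window in annotated exons of the gene. The 3 windows printed include the only palindrome (*Btg2*) and the most matches (*Nr4a1*, 4), so they do not stand for all 7. The windows over all genes were not matched for base content, so the shares do not test an excess of the word in the members. A match of letters is a description and not a site in use. *Egr1*, *Ier2* and *Arc* are named only.

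In All-Hypo cells, transcripts of all 10 immediate early genes were more abundant in *Eed-cKO* than in control embryos, by fitted ratios between 1.94 (*Jun*) and 4.04 (*Ier2*). All 10 passed the edgeR quasi-likelihood test at an adjusted p of 0.05, where 15.3% of 12558 genes tested were called higher in *Eed-cKO* and 27.7% were called in either direction. Their median log2 fold change was 1.25, against 0.0059 over all genes tested. For 9 of the 10, the lowest *Eed-cKO* embryo exceeded the highest control embryo, which held for 4.01% of all genes. A level in All-Hypo cells joins the level within each kind of cell with the mix of kinds, and both are given separately further on.

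The AP-1 genes encode the Fos and Jun proteins, which pair to bind DNA. *Fos*, the most abundant member, ran from 201 to 333 CPM in the 6 control embryos (median 270) and from 506 to 666 in the 9 *Eed-cKO* embryos (median 585). The groups lay well apart, and the log2 fold change was 1.07 (SE 0.10, edgeR, adjusted p = 8.46e-08). *Fosb*, whose protein includes a stable form that builds up with repeated activity, was at 24.9 to 62.7 in control embryos (median 39.0) and 108 to 207 in *Eed-cKO* embryos (median 126). Its log2 fold change was 1.72 (SE 0.17, edgeR, adjusted p = 2.15e-07). *Jun*, the partner of Fos proteins, was at 127 to 195 in control embryos (median 139) and 226 to 439 in *Eed-cKO* embryos (median 295). *Jun* had the tightest libraries: all 26 *Eed-cKO* libraries lay above all 22 control libraries, and its log2 fold change was 0.96 (SE 0.12, edgeR, adjusted p = 5.77e-06). These libraries are parts of 9 and 6 embryos, and no share over all genes was set beside their separation. *Junb*, a weaker activator than *Jun*, was at 22.5 to 36.0 in control embryos (median 30.6) and 52.9 to 101 in *Eed-cKO* embryos (median 69.3), and rose by 1.17 on the log2 scale (SE 0.14, edgeR, adjusted p = 1.66e-06).

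*Egr1* and *Nr4a1* encode DNA-binding transcription factors, a zinc finger protein and an orphan nuclear receptor. *Egr1* was at 74.7 to 125 CPM in control embryos (median 116) and 185 to 326 in *Eed-cKO* embryos (median 214), a log2 fold change of 1.09 (SE 0.13, edgeR, adjusted p = 3.91e-06). *Nr4a1* was at 52.7 to 75.0 in control embryos (median 63.0) and 125 to 235 in *Eed-cKO* embryos (median 144). Its log2 fold change was 1.32 (SE 0.14, edgeR, adjusted p = 3.66e-07). In both genes the embryos of the groups did not overlap, while single libraries did: 5 of 26 *Eed-cKO* libraries for *Egr1* and 4 of 26 for *Nr4a1* were below the highest control library.

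*Ier2*, a nuclear protein of the early response, showed the largest ratio of the 10. It was at 15.5 to 29.1 in control embryos (median 20.8) and at 75.5 to 106 in *Eed-cKO* embryos (median 93.2). No library of either genotype reached the range of the other, again without a share over all genes beside it. The log2 fold change of *Ier2* was 2.01 (SE 0.12, edgeR, adjusted p = 3.58e-11). *Btg2*, a growth-restraining cofactor of transcript decay, was at 56.4 to 85.0 in control embryos (median 69.1) and 139 to 226 in *Eed-cKO* embryos (median 179). It rose by 1.36 on the log2 scale (SE 0.099, edgeR, adjusted p = 1.61e-09).

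*Arc* and *Npas4* are best known from neurons, although the levels of *Arc* by kind further on were higher in several kinds of glia: *Arc* encodes a synaptic protein that removes glutamate receptors, and *Npas4* a transcription factor that responds to calcium. *Arc* was the rarest member, with 310 UMIs in control and 918 in *Eed-cKO* cells. Its embryos overlapped: controls ran from 5.32 to 15.6, with a median of 6.05, and *Eed-cKO* embryos from 14.3 to 39.3, with a median of 25.4. The log2 fold change of *Arc* was 1.66 with the widest error of the list (SE 0.26, edgeR, adjusted p = 5.62e-05). *Npas4* was at 34.6 to 43.4 in control embryos (median 39.7) and 56.1 to 119 in *Eed-cKO* embryos (median 78.6), a log2 fold change of 0.97 (SE 0.13, edgeR, adjusted p = 1.32e-05).

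**Figure D1:**
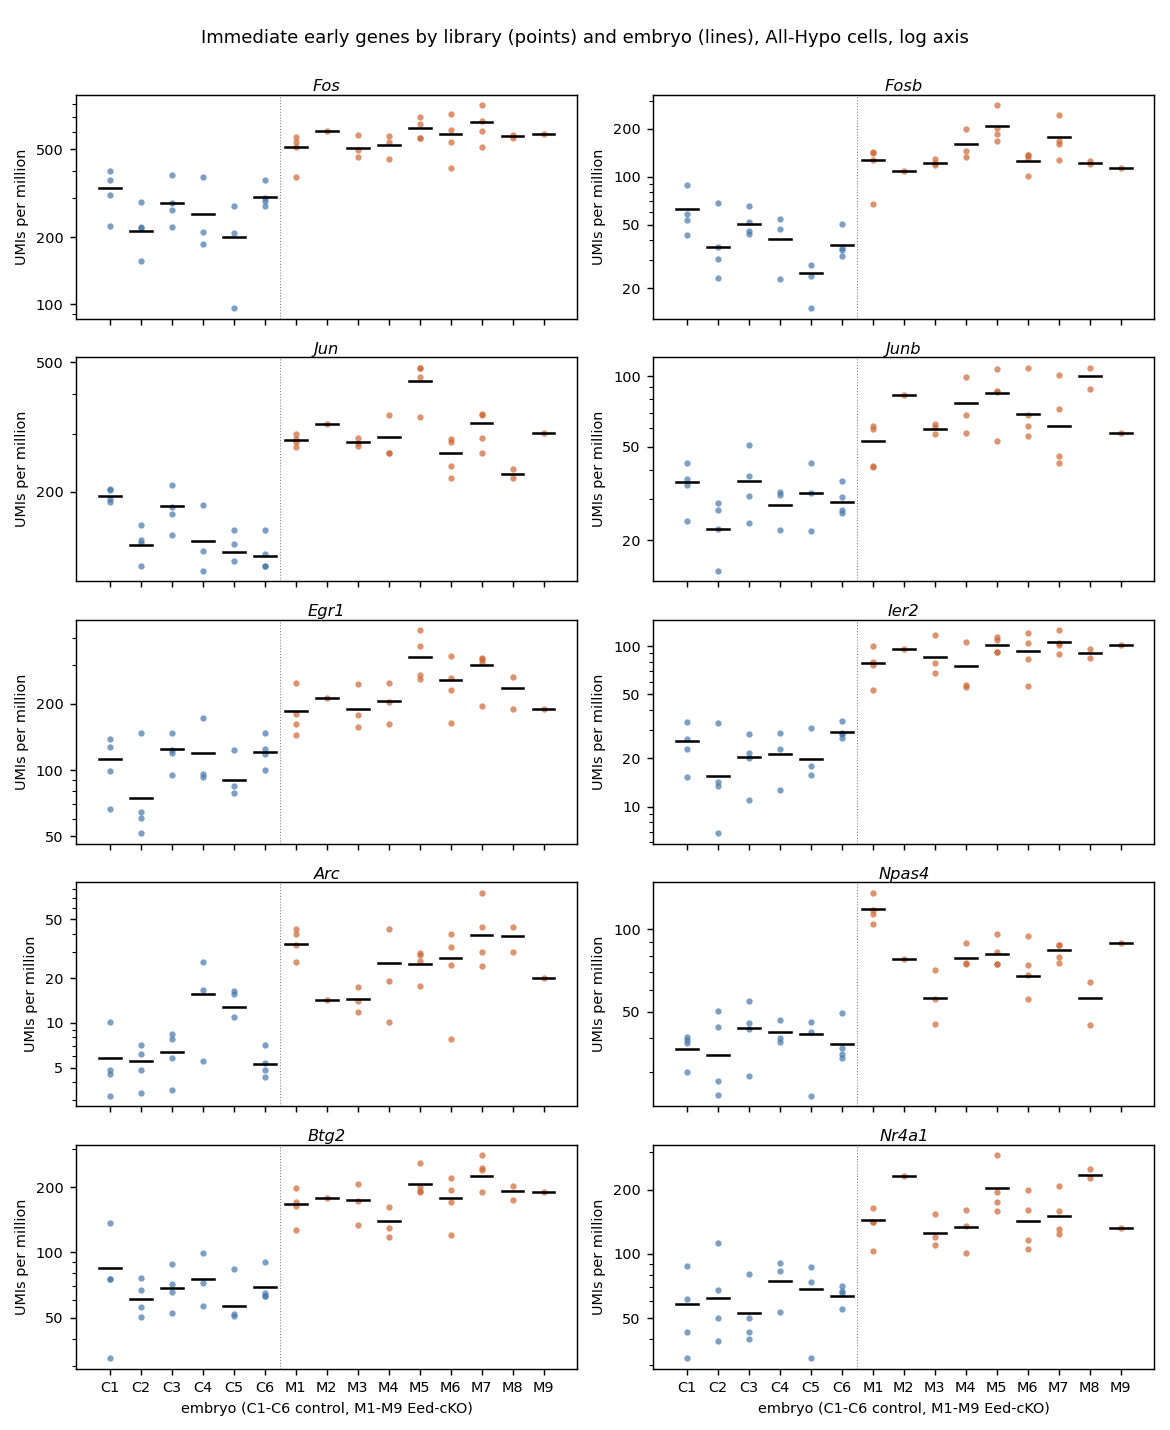
CPM (log axis) of the 10 genes in All-Hypo cells, with 1 point for each of 48 libraries and a line for the sum of each embryo (C1 to C6 control in blue, M1 to M9 *Eed-cKO* in orange). The lines of the 2 groups are apart in every panel but that of *Arc*, and points of 1 embryo spread most in *Arc* and *Ier2*.

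How far libraries of 1 embryo differ was set beside the difference between genotypes. Of the variation in log2 CPM over the 48 libraries, the genotype took between 57.9% (*Arc*) and 82.7% (*Ier2*) for the 10 genes, with a median of 69.3%. Embryos within a genotype took a median of 13.1%, and libraries within an embryo 17.9%. Over all 13077 genes the medians were 8.26%, 33.9% and 51.5%. Of the 47 degrees of freedom, 1 belongs to genotype, 13 to embryos and 33 to libraries (2.13%, 27.7% and 70.2%).

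**Figure D2:**
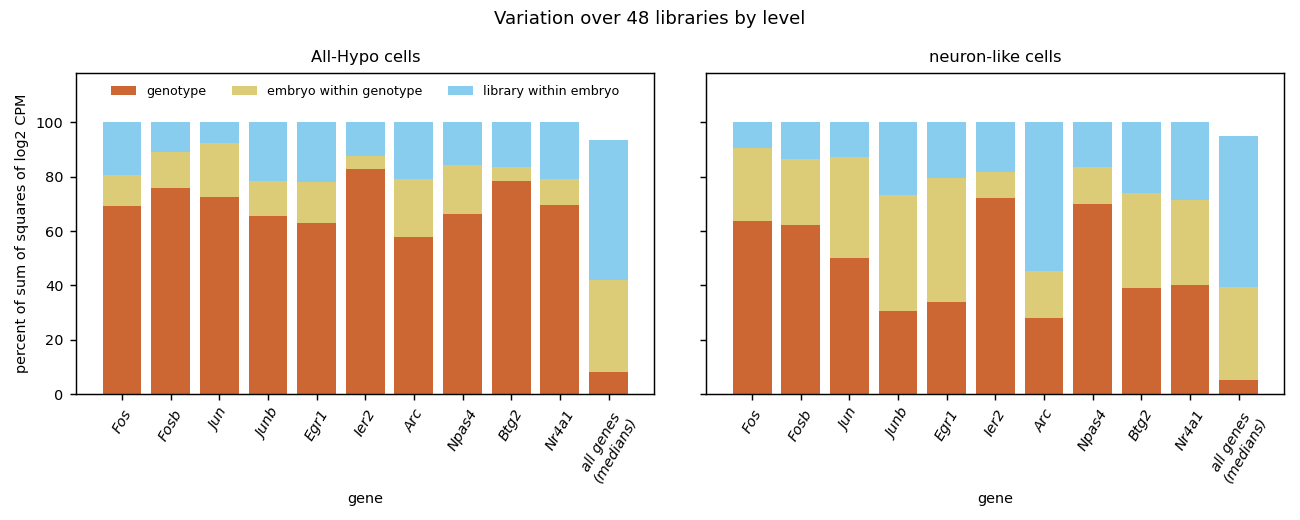
Percent of the sum of squares of log2 CPM over 48 libraries due to genotype, embryo within genotype and library within embryo, for each gene and, as separate medians that need not sum to 100, for all genes. Genotype takes the largest part for each of the 10 genes in All-Hypo cells (left). In neuron-like cells (right) the genotype part is smaller for 9 genes and, for *Npas4*, 70.0% against 66.3%.

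On the log2 scale, the SD between libraries of 1 embryo was between 0.18 (*Jun*) and 0.59 (*Arc*), with a median of 0.39 over the 10 genes, of which counting alone accounts for 0.14. The part beyond counting had a median of 0.36, against a median of 0.11 over all genes. The difference between genotypes had a median of 1.21 on the same scale. Within an embryo, the highest library was above the lowest by a median ratio of 1.81 for *Fos* in control and 1.27 in *Eed-cKO*, and by 1.31 for *Jun* in both. The widest spread within an embryo was a ratio of 5.14 for *Arc* in an *Eed-cKO* embryo, followed by 4.85 for *Ier2* and 4.66 for *Arc* in control embryos.

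Libraries tended to be high or low in several members at once. Over the 46 libraries of the 13 embryos with more than 1 library, the deviation of *Nr4a1* from its embryo mean had a Pearson r of 0.80 with the mean deviation of the other 9 genes, and *Ier2* and *Fos* had 0.78 each. *Arc* and *Npas4* followed the others least, with 0.34 and 0.27. These points share the library and its mix of cells. The 10 other genes whose deviations were most like the members' mean were *Cyr61* (r = 0.77), an immediate early gene itself, then *Dynlrb2*, *Zfp36l1*, *Cfap126*, *Prelp*, *Pltp*, *Foxj1*, *Josd2*, *Ak7* and *Metrn* (0.72 to 0.77). *Foxj1* and *Dynlrb2* are on the marker list of ependymal cells, the ciliated lining of the ventricle. Ependymal-like cells made up 0 to 2.69% of All-Hypo cells in control libraries and 1.07 to 6.64% in *Eed-cKO* libraries, and their part in the spread between libraries was not tested.

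Embryos of 1 genotype also differed from each other. Against the spread of their own libraries, 5 of the 10 genes differed among embryos within genotype, where 30.6% of 13077 genes did. These were *Jun* (edgeR quasi-likelihood F test, adjusted p = 8.20e-07), *Fosb* (adjusted p = 0.000622), *Npas4* (adjusted p = 0.00134), *Arc* (adjusted p = 0.00813) and *Egr1* (adjusted p = 0.0239). *Ier2*, with the largest genotype difference, was among the 5 that did not pass (adjusted p = 0.344). In this test libraries are the samples, and nothing states that they came from separate dissociations.

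The members were most abundant outside neurons. In control cells, *Fos* stood at 2956 CPM in tanycyte-like cells (glia lining the third ventricle), 2354 in ependymal-like, 1959 in astrocyte-like and 153 in neuron-like cells, with all cells of a kind pooled. Astrocyte-like cells exceeded neuron-like cells of the same embryo in 15 of 15 embryos for 8 of the 10 genes, and in 14 of 15 for *Arc*. Summed over the 10 genes, the astrocyte-like level was 9.72 ± 2.76 times the neuron-like level (SD, n = 15). *Npas4* differed from the other members in astrocyte-like cells: it was at 12.6 ± 5.11 in astrocyte-like cells of control embryos and 39.5 ± 3.59 in neuron-like cells (SD, n = 6), and 1 of 15 embryos had more in astrocyte-like cells. Its pooled level was nevertheless highest in ependymal-like cells, where control cells had 94.99 and neuron-like control cells 39.4, and *Eed-cKO* cells 113.5 and 85.5, and 9 of 10 embryos with at least 10 ependymal-like cells had more there. With each cell thinned to 2000 UMIs, the mean share of neuron-like cells with an *Npas4* UMI was 6.04 ± 1.56% (SD, n = 6) in control. In *Eed-cKO* it was 11.6 ± 2.59% (n = 9). The shares of endothelial-like cells with an *Npas4* UMI were 1.14 ± 2.56% (n = 5) in control and 4.57 ± 3.34% (n = 4) in *Eed-cKO*. Thinning left out 304 control and 360 *Eed-cKO* neuron-like cells, and 26 and 23 endothelial-like cells, as too shallow. Without thinning, 14.8% and 23.8% of neuron-like cells held one at median depths of 5481 and 4871 UMIs, and 5.56% and 5.79% of endothelial-like cells at 4822 and 4701.

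The order of kinds differed between members, here again over all control cells of a kind. *Junb* was highest in microglia or macrophage-like (953) and leptomeningeal-like cells (760), and *Nr4a1* in endothelial-like cells (739). *Btg2* was highest in leptomeningeal-like (964) and tanycyte-like cells (942), and *Egr1* in ependymal-like (909) and astrocyte-like cells (874). *Arc* was high in ependymal-like cells alone, at 281 CPM against 34.3 in tanycyte-like and 5.70 in neuron-like cells of control embryos. Apart from neuron-like cells, neighbours in these orders rest on small clusters: control embryos held 43 ependymal-like and 80 tanycyte-like cells, and *Fos* ran from 850 to 5379 over the 5 control embryos with at least 10 tanycyte-like cells. Neuron-like cells, through their number, still held 51.6% of control *Fos* UMIs in All-Hypo cells and 90.2% of those of *Npas4*, but 39.3% of those of *Ier2*.

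**Figure D3:**
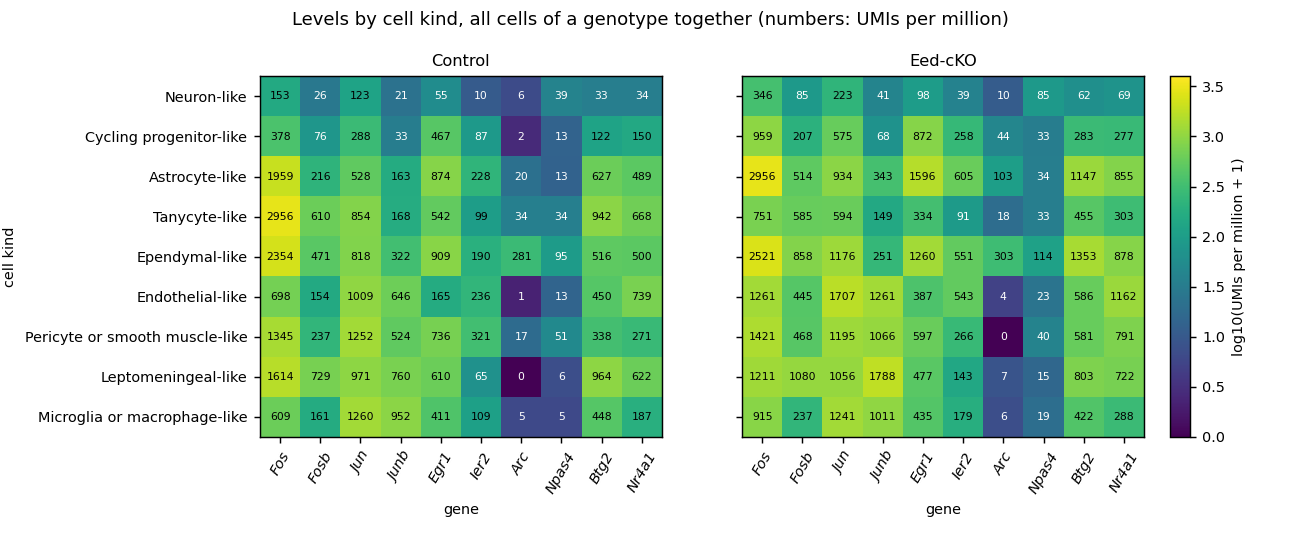
CPM of the 10 genes in 9 kinds of cell, all cells of a genotype together (colour: log10 of the value plus 1; numbers: the value). Neuron-like cells are the lowest named kind for 8 genes in control cells, *Npas4* is at most 114 in any kind, and the tanycyte-like row is the one where *Eed-cKO* values are below control for each of the 10 genes.

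The mix of kinds itself differed between genotypes. Ependymal-like cells held 0.645% of All-Hypo UMIs in control and 3.204% in *Eed-cKO*, tanycyte-like cells 0.698% and 3.01%, and neuron-like cells 89.3% and 83.1%. With each kind weighted by its control share, an alternative chosen after seeing the data, the ratio of *Eed-cKO* to control fell from 2.65 to 1.79 for *Btg2*, from 3.37 to 2.00 for *Arc* and from 2.16 to 1.81 for *Fos*. For *Ier2* it went from 4.12 to 3.14, and for *Npas4* it was 2.05 as found and 2.10 at the control mix. All 10 ratios stayed above 1 at the control mix, between 1.73 and 3.14.

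In neuron-like cells alone, all 10 genes were higher in *Eed-cKO* embryos (edgeR quasi-likelihood test at an adjusted p of 0.05, where 9.38% of 15240 genes were called higher and 7.8% lower), with a median log2 fold change of 0.90 against 0.0093 over all genes. For *Fos*, *Fosb*, *Ier2* and *Npas4* the embryos did not overlap, which held for 2.24% of genes. *Ier2* was at 6.08 to 12.2 CPM in neuron-like cells of control embryos (median 9.81) and 25.3 to 64.1 in *Eed-cKO* (median 36.2), a log2 fold change of 1.93 (SE 0.19, edgeR, adjusted p = 3.196e-08). *Npas4* was at 36.1 to 45.6 (median 38.7) and 61.9 to 123 (median 86.2), a log2 fold change of 1.04 (SE 0.12, edgeR, adjusted p = 4.81e-07). *Fos* was at 94.6 to 220 (median 151) and 234 to 456 (median 303). The neuron-like differences of *Arc* (log2 fold change 0.76, SE 0.19, edgeR, adjusted p = 0.00602) and *Btg2* (0.82, SE 0.17, edgeR, adjusted p = 0.00125) were the furthest below those in All-Hypo cells. For 6 genes, among them *Jun*, *Egr1* and *Arc*, neuron-like levels of the groups overlapped.

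Neuron-like clusters did not hold both genotypes evenly: 15 of 17 had at least 30 cells of each, with 5291 of 5301 control and 3381 of 4882 *Eed-cKO* neuron-like cells. In the 2 others, 1 led by *Tfap2b* and *Lamp5* and 1 by *Alas2* and *Cga*, *Fos* was at 295 and 669 CPM in *Eed-cKO* cells. The cluster led by *Alas2* and *Cga* held no control cells. Within the 15 shared clusters the edgeR test, added after seeing the data, called all 10 genes higher (5.98% of 14886 genes were, and 5.72% were lower), with log2 fold changes from 0.80 (*Egr1*) to 1.81 (*Ier2*). *Fos*, *Fosb*, *Jun*, *Ier2*, *Npas4* and *Nr4a1* were higher in *Eed-cKO* in 15 of 15 shared clusters, *Junb* and *Egr1* in 14, and *Arc* and *Btg2* in 12. In the cluster led by *Aldh1a1* and *Slc6a3*, a dopamine transporter gene, *Npas4* was at 29.7 in control and 163 in *Eed-cKO* cells and *Fos* at 98.8 and 382. In the cluster led by *Agrp* and *Npy*, which encode peptides that drive feeding, *Fos* was at 161 and 427 and *Npas4* at 56.5 and 121. Cells of a cluster come from several embryos and were counted together, so these values carry no test. The clusters share the same embryos, and no share over all genes was set beside the counts of clusters. The shared cluster led by *Tcf7l2* and *Gbx2* had 34 *Eed-cKO* cells, with 2 *Junb* and 4 *Btg2* UMIs.

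In neuron-like cells the balance of sources shifted: genotype took a median of 45.1% of the variation of the 10 genes, embryos 29.0% and libraries 19.4%. The genotype share in neuron-like cells was largest for *Ier2* (72.3%) and *Npas4* (70.0%, against 66.3% in All-Hypo cells) and lowest for *Arc* (28.1%), *Junb* (30.6%) and *Egr1* (33.8%). For *Egr1* and *Junb*, embryos within a genotype took more of the variation (45.8% and 42.5%) than genotype did, and for *Arc* libraries did (54.8%). Differences among embryos within genotype were called for 8 of the 10 genes in neuron-like cells, where 22.6% of 12653 genes were called.

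In astrocyte-like cells, 9 of the 10 genes were higher in *Eed-cKO* embryos, where 4.59% of 11731 genes were called higher, 3.31% lower and 7.9% in either direction. *Fos* was the exception, at 1115 to 3030 CPM in control embryos (median 1947) and 2250 to 3439 in *Eed-cKO* (median 2952), with a log2 difference of 0.52 (SE 0.18, edgeR, adjusted p = 0.0643). *Ier2* was at 121 to 343 (median 231) and 424 to 759 (median 569), without overlap, a log2 fold change of 1.34 (SE 0.19, edgeR, adjusted p = 1.14e-06). Groups lay apart in this way for 1.11% of genes. *Egr1* embryos did not overlap either, at 559 to 1175 in control and 1217 to 2252 in *Eed-cKO* (log2 fold change 0.74, SE 0.17, edgeR, adjusted p = 0.00211). *Arc* had the largest astrocyte-like ratio, from 32 UMIs in control and 155 in *Eed-cKO* cells (log2 fold change 2.30, SE 0.41, edgeR, adjusted p = 6.75e-05).

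Tanycyte-like cells stood against this direction when cells were pooled, but not for every gene over embryos. With all cells pooled, each of the 10 genes was at a lower level in *Eed-cKO* tanycyte-like cells, at ratios from 0.254 (*Fos*) to 0.969 (*Npas4*) and a median of 0.655. Over embryos with at least 10 such cells, *Fos* was at 850 to 5379 in 5 control embryos (median 1402) and 325 to 1234 in 8 *Eed-cKO* embryos (median 848). *Btg2* was at 567 to 1272 (median 722) and 345 to 616 (median 457). *Fosb* (median 396 and 489), *Junb* (85.8 and 116) and *Ier2* (85.8 and 87.8) had higher medians and means over *Eed-cKO* than over control embryos, opposite to their pooled values, and so had *Arc* by its median (0 and 18.2). The groups overlapped for all 10 genes, these cells were few, and no test was made. Cycling progenitor-like cells also carry markers of oligodendrocyte precursors. With these cells pooled, all 9 genes with enough control UMIs were at higher levels in *Eed-cKO* cells (median ratio 2.33). In pooled ependymal-like cells 9 of 10 were higher (median ratio 1.41), with *Junb* at 322 in control and 251 in *Eed-cKO*. Only 2 control and 8 *Eed-cKO* embryos held at least 10 ependymal-like cells. Over these embryos *Fos* (median 2607 in control and 2515 in *Eed-cKO*), *Arc* (383 and 365) and *Npas4* had lower medians in *Eed-cKO*, but higher means. These counts of genes carry no test, and no share over all genes was set beside them.

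Non-neural cells went through the same dissociation in the same libraries. Whether Sox1-Cre had acted in their leptomeningeal-like and pericyte or smooth muscle-like clusters was not tested. All 10 genes had a log2 difference above 0 there, from 0.33 to 1.26 with a median of 0.51 against -0.03 over all genes, and 2 of 10 passed the test over 6 control and 8 *Eed-cKO* embryos, where 1.67% of 12392 genes were called higher and 3.22% in either direction. These were *Fosb* (log2 fold change 1.26, SE 0.33, edgeR, adjusted p = 0.0402) and *Junb* (1.00, SE 0.25, edgeR, adjusted p = 0.0306). *Fos* had a difference of 0.44 (SE 0.27, edgeR, adjusted p = 0.506) and *Ier2* of 0.63 (SE 0.23, edgeR, adjusted p = 0.166). The mix of non-neural kinds differed, with 89 leptomeningeal-like cells in control and 268 in *Eed-cKO*. Without the leptomeningeal-like cells, an alternative added after seeing the data, 0 of the 10 passed over 6 and 7 embryos (edgeR), and 0.0362% of 11064 genes were called higher and 0.0723% lower. The median log2 difference of the 10 was 0.738 there, against 0.507 with these cells, and 7 of the 10 had an unadjusted p under 0.05, as 7% of all genes did. In endothelial-like cells alone (144 and 121 cells, 6 embryos each with at least 10), 4 of the 10 genes passed: *Fosb* (log2 fold change 1.66, SE 0.32, edgeR, adjusted p = 0.0187), *Ier2* (1.32, SE 0.25, edgeR, adjusted p = 0.0194), *Jun* (0.89, SE 0.19, edgeR, adjusted p = 0.041) and *Junb* (1.14, SE 0.26, edgeR, adjusted p = 0.0412), where 0.216% of 9737 genes were called higher. The median log2 difference of the 10 was 1.08 in endothelial-like cells, against 0.897 in neuron-like cells. Single values ran from 0.0962 (*Arc*) to 1.69 (*Egr1*, SE 0.44, edgeR, adjusted p = 0.116). At an unadjusted p under 0.05 (edgeR) there were 8 of the 10, and 7.08% of all genes. *Ier2* was at 139 to 378 in endothelial-like cells of control embryos (median 221) and at 358 to 909 in *Eed-cKO* (median 540), so that the groups overlapped. *Fosb* was at 22.8 to 239 (median 170) and 334 to 692 (median 531), without overlap. How many of all genes lay apart in this way in endothelial-like cells was not computed.

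Whether the genotype difference itself differed between neuron-like and non-neural cells was tested with both sums of each embryo in 1 fit. With all non-neural cells, 1 gene passed: the difference of *Ier2* was larger in neuron-like cells by 1.24 on the log2 scale (SE 0.29, edgeR, adjusted p = 0.0225), where 1.67% of 15762 genes passed. The call was lost when leptomeningeal-like cells were left out, in a fit with fewer embryos and a smaller share of genes called. Whether these cells gave rise to the call was not tested. Without them, in a fit added after seeing the data, the *Ier2* value was 0.78 (SE 0.26, edgeR, adjusted p = 0.382, 0.398% of genes called), and against endothelial-like cells alone it was 0.55 (SE 0.32, edgeR, adjusted p = 0.867, 0.352% of genes called). With all non-neural cells, the difference of differences of *Fos* was 0.49 (SE 0.22, edgeR, adjusted p = 0.352), for *Jun* 0.42 (SE 0.18, edgeR, adjusted p = 0.322), for *Fosb* 0.25 (SE 0.22, edgeR, adjusted p = 0.723) and for *Junb* -0.20 (SE 0.27, edgeR, adjusted p = 0.853). For *Arc* and *Npas4* the errors were too wide to read (SE 1.05 and 0.67). Against endothelial-like cells alone, *Fos* was at -0.08 (SE 0.31), *Jun* at -0.02 (SE 0.27), *Fosb* at -0.03 (SE 0.33) and *Junb* at -0.29 (SE 0.30). There *Btg2* was at 0.26 (SE 0.33) and *Nr4a1* at 0.07 (SE 0.30). *Egr1* was at -1.02 in the same fit (SE 0.48, edgeR, unadjusted p = 0.0422, adjusted p = 0.765).

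**Figure D4:**
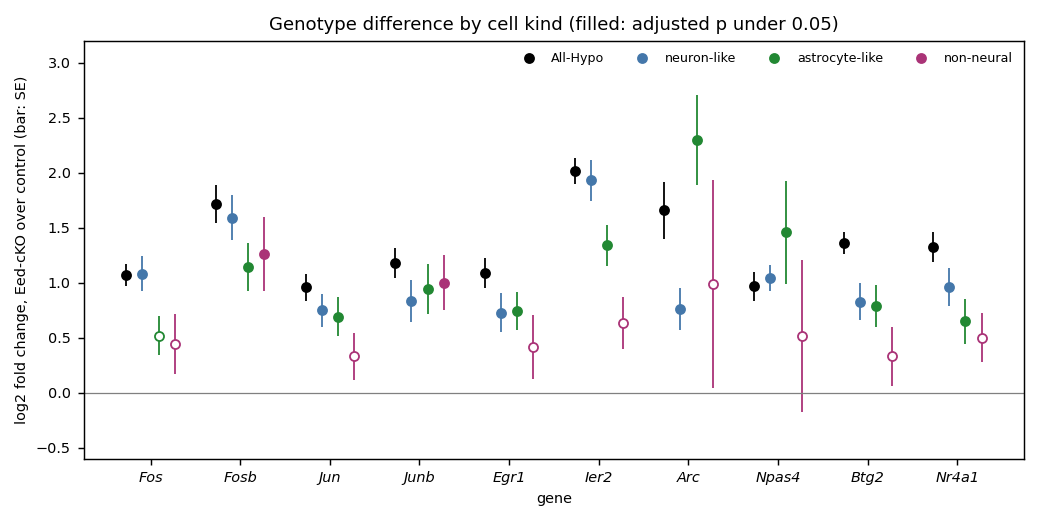
Log2 fold change of *Eed-cKO* over control with its SE for the 10 genes in All-Hypo, neuron-like, astrocyte-like and non-neural cells (filled points passed an adjusted p of 0.05, edgeR). All 10 genes are filled in All-Hypo and neuron-like cells, 9 in astrocyte-like cells and 2 in non-neural cells, where every point is still above 0.

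Genes related to the 10 were taken from lists of the same pathway and tested in All-Hypo cells, where 15.3% of all genes were called higher and 12.4% lower. Of the other AP-1 genes and partners, 4 of 5 tested rose: the stress-induced factor *Atf3* averaged 3.25 CPM in control and 47.98 in *Eed-cKO* embryos (log2 fold change 3.81, SE 0.28, edgeR, adjusted p = 2.28e-09), and *Maff* and *Fosl2* rose by 1.563 and 1.201, while *Jund* had a difference of 0.28 (edgeR, adjusted p = 0.303). Of the other Egr and Nr4a genes, 4 of 5 rose, led by *Nr4a3* (log2 fold change 1.89, SE 0.18, edgeR, adjusted p = 7.23e-08), *Egr3* (2.17) and *Egr4* (2.14), and *Nr4a2*, also a marker of some neurons, had a difference of 0.05. Of 18 further immediate early and feedback genes, 14 rose and none fell, among them *Gadd45b* (2.27), *Ppp1r15a* (1.32) and *Ier3* (2.22), all 3 of the stress response, with 4 not called (*Klf6*, *Sik1*, *Rhob* and *Myc*).

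Of 10 heat shock genes, 2 rose, 1 fell and 7 did not pass, a share near that of all genes (27.7% called): *Hspb1* went from 1.47 to 11.4 CPM (log2 fold change 2.96, SE 0.33, edgeR, adjusted p = 1.00e-06), *Hspa1a* rose by 0.68, and *Hsph1* fell by 0.24. Of 7 tested activity-regulated neuronal genes, 4 fell and 1 rose. *Bdnf*, a neurotrophin induced by activity, fell by 1.16 on the log2 scale (SE 0.12, edgeR, adjusted p = 6.35e-07), from 37.7 to 17.9, and *Scg2*, a secretory granule protein, fell by 0.61, while the clock gene *Per1* rose by 0.88. In neuron-like cells alone, several of these values were smaller. *Nr4a3* was at 0.62 (edgeR, adjusted p = 0.0321), *Egr3* at 1.17 and *Fosl2* at 0.59 on the log2 scale, all still called. *Per1* (0.38, edgeR, adjusted p = 0.0591), *Klf10* (0.023, adjusted p = 0.949), *Dusp6* (0.25, adjusted p = 0.345) and *Crem* (0.24, adjusted p = 0.274) were no longer called. *Klf6* (-0.36, edgeR, adjusted p = 0.0324), *Myc* (-0.43, adjusted p = 0.0208) and *Hspe1* (-0.24, adjusted p = 0.0225) were lower there. Of 6 tested upstream factors, *Srf* (0.71, SE 0.11, edgeR, adjusted p = 4.22e-05) and *Crem* (0.48, SE 0.14, edgeR, adjusted p = 0.0158) rose, and *Creb1* had a difference of 0.0028 (edgeR, adjusted p = 0.987).

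**Figure D5:**
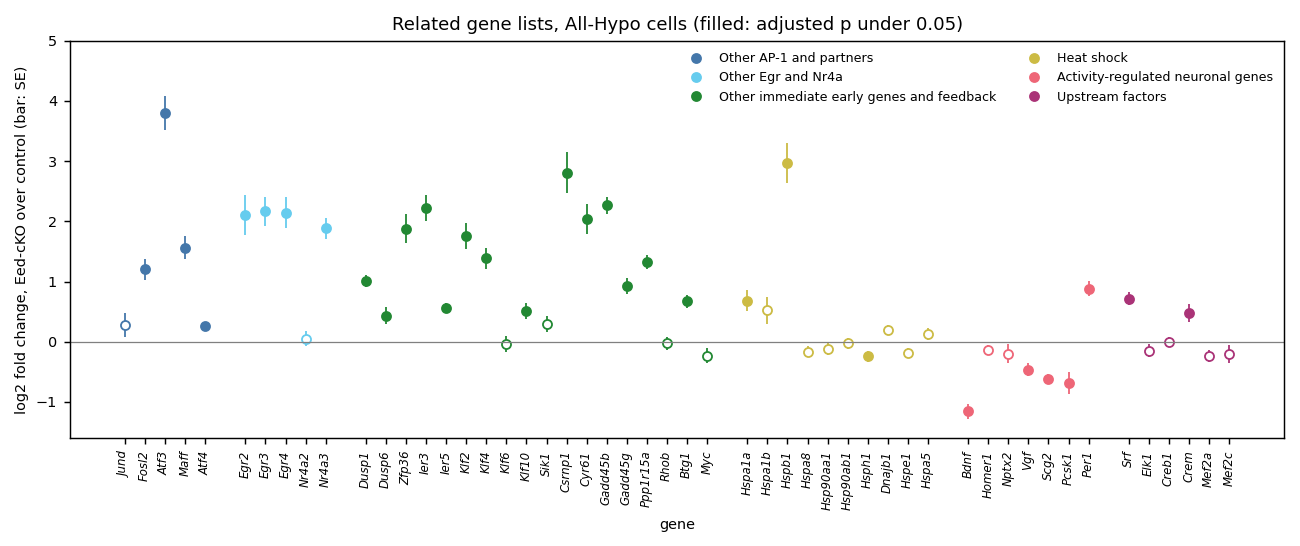
Log2 fold change of *Eed-cKO* over control with its SE in All-Hypo cells for the tested genes of 6 related lists (filled points passed an adjusted p of 0.05, edgeR). Points of the 3 immediate early lists lie mostly above 0, up to 3.81 for *Atf3*, the heat shock points lie between -0.24 and 0.68 but for *Hspb1* (2.96), and 4 filled neuronal points lie below 0.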

How the data were processed

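UMIs of 48 hypothalamus libraries were counted by the authors with the SureCell RNA Single-Cell pipeline on mm10. The submitters' processing notes name STAR 2.5.2b and SAMtools 1.3. The authors deposited raw counts per gene and cell, with no normalization and without cells under 600 UMIs, 300 genes or 1.2 UMIs per expressed gene. Libraries held 576432 to 4513505 UMIs, and litters were read from the library names.

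Clusters were made anew, leaving out the 10 genes and the related lists, by scanpy 1.11.5 and leidenalg 0.10.2 from 2000 variable genes and 30 principal components at resolution 1. Clusters other than neuron-like ones were named where at least 3 markers of a type were raised 2 times or more and found in at least 10% of cells. Neuron-like clusters had at least 3 neuron markers found in at least 30% of their cells, raised or not, and no other type with 3 raised markers. Clusters with a median depth under 0.333 of that of their libraries stayed unnamed unless a marker of their type was among their top genes. Scrublet scores served only as an alternative, removing the top 6% of cells as doublets. The embryo was the replicate. Sums of UMIs over its cells were compared by the quasi-likelihood test of edgeR 4.0.16 (R 4.3.3) with TMM and Benjamini-Hochberg adjustment at 0.05. Genes needed 15 UMIs over embryos, 2 in 1 embryo and, in All-Hypo cells, a median log-CPM of 1.5, and embryos needed 10 cells of a kind. An SE is the log2 fold change over the root of F. Variation over libraries was split as nested sums of squares of log2 CPM (prior count 2). CPM refers to the UMIs of the cells named, and ratios by kind needed 4 control UMIs. limma 3.58.1 (TREAT at 0.18) and DESeq2 1.42.0 were alternatives. On simulated counts, edgeR recovered 100% of 200 genes changed 2-fold between genotypes among 12558 (6.1% of calls false). It recovered 98.5% of 200 changed in 2 embryos among 13077 (3.9%) and 74% of 200 with an interaction of 1.5 among 15647 (2.63%). The simulated counts had the same dispersion for every gene and no further effect of embryo or litter. The least abundant genes were not among those changed, so these rates can be too favourable for the real counts.

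The members, lists and tests were chosen with earlier results of these data known. Named genes were the members, up to 3 called genes of each related list with the smallest p, the 10 genes most like the members over libraries, and *Eed*. Other genes of the lists, and the neuron-like clusters described, were named after their values were seen. Nothing states that embryos of a litter or libraries of an embryo were handled separately, so p-values measure the spread between these samples, which may be technical.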

Additional observations from a re-analysis of the deposited data

Results flagged for a closer look

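Over 100 sets of embryos or libraries, a sample stood apart by Dixon's test in 6, and chance gives about 1 in 20. *Jun* was at 439 CPM in *Eed-cKO* embryo F0589_E1, with the next embryo at 325. *Fosb* was at 101 in 1 library of *Eed-cKO* embryo F0652_E5, below the 131 of the next. *Egr1* was at 148 in 1 library of control embryo F4520_E4, above 64.6, and at 195 in 1 library of *Eed-cKO* embryo F0652_E8, below 309. *Btg2* was at 90.4 in 1 library of control embryo F4690_E3, above 64.8, and at 258 in 1 library of *Eed-cKO* embryo F0589_E1, above 201. The *Ier2* difference between genotypes was larger in neuron-like than in non-neural cells by 1.24 on the log2 scale, by a test of that difference (edgeR, adjusted p = 0.0225). Without leptomeningeal-like cells it was 0.78 (edgeR, adjusted p = 0.382).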

How the results depend on the processing

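All 10 genes were called higher in All-Hypo cells under each alternative: other size factors, library size alone, no median filter, DESeq2, limma with TREAT on libraries, libraries or litters as samples, sex as a covariate, other cell sets, and each embryo left out. The largest shift of a single value was *Arc*, from 1.66 to 0.78 on the log2 scale in neuron-like cells. The median over all genes was 0.0059 with TMM and 0.0527 with library size alone, and the genes called higher moved from 1923 of 3483 to 2302 of 3398, or 2090 of 3186 with equal weight of libraries. Libraries as samples called 5861 genes, TREAT 2337 and neuron-like cells 2200. Leaving out the largest library, or the unnamed clusters, both chosen after seeing the data, changed no member's call. The calls in non-neural cells moved from 2 to 4 in endothelial-like cells and to 0 without leptomeningeal-like cells (7 of 10, and 7% of all genes, at an unadjusted p under 0.05, edgeR), where the median log2 difference went from 0.507 to 0.738. In endothelial-like cells alone this median was 1.08. The difference between neuron-like and non-neural cells was called for 1 gene, *Ier2*, and for 0 genes without leptomeningeal-like cells or with endothelial-like cells only (1 gene each at an unadjusted p under 0.05, *Ier2* and *Egr1*, edgeR). Members that differed among embryos went from 5 (30.6% of all genes) to 8 in neuron-like cells (22.6%), and the median genotype share from 69.3% to 45.1%. The genotypes could not be paired because 0 litters held both. Only the fit of neuron-like against non-neural cells took 2 sums of the same embryo together.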
